A study of Mus musculus with 6 samples.

Results

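The genes described here are 37 genes of the synapse: neurexins and neuroligins, other adhesion proteins that organise synapses, and the scaffold proteins and kinase subunits beneath the postsynaptic membrane. They were taken by symbol from a table of 23793 loci, each of the 37 was found at 1 locus, and 37 of 37 reached the level needed for testing (1 FPKM or more in 3 or more of the 6 libraries). FPKM is a fragment count scaled for transcript length and for library size. RNA was sequenced from the whole cerebellum of mice at postnatal day 0, in 3 control libraries (genotype Zeb2 f/+; hGFAP-cre) and 3 conditional knockout (cKO) libraries (Zeb2 f/f; hGFAP-cre). Zeb2 is a zinc finger transcription factor, f marks a floxed allele that Cre recombinase deletes, and hGFAP-cre expresses Cre from the human GFAP promoter, which is active in neural progenitors and glia. The controls carried Cre and 1 floxed allele too, so the comparison is of the loss of both alleles against the loss of 1. The labels do not say whether each library came from a separate animal.

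Chemical synapses form where adhesion proteins of the axon and of the target cell meet across the cleft. Presynaptic neurexins bind neuroligins and leucine-rich repeat proteins on the postsynaptic side, and these recruit scaffolds that hold the receptors: proteins of the PSD-95, Dlgap, Shank and Homer families at glutamatergic synapses and gephyrin at GABAergic and glycinergic ones. In the mouse cerebellum at birth, Purkinje cells and neurons of the cerebellar nuclei are already postmitotic, while granule neurons, the most numerous neurons of the adult, are still being produced and most cerebellar synapses have yet to form.

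Zeb2 was at 11.4, 9.52 and 7.995 FPKM in controls 1, 2 and 3, against 6.19, 3.89 and 5.81 FPKM in cKO 1, 2 and 3, with no overlap between the groups and a cKO mean of 54.9% of the control mean (limma adjusted p = 0.107). Xist ranged from 0.331 to 0.515 FPKM in control libraries and from 142 to 147 FPKM in cKO libraries, and the Y-linked gene Ddx3y from 15.2 to 17.3 and from 0.00836 to 0.0286 FPKM, so sex differed together with genotype, and effects of the 2 cannot be told apart here. All 8 marker genes of cerebellar tissue were measured in all 6 libraries, from the homeobox genes En1 (11.5 to 17.98 FPKM) and En2 (39.2 to 48.7 FPKM) to the granule progenitor factor Atoh1 (6.46 to 13.4 FPKM). Ratios of low values, which reflect how each library was scaled, piled up at 1 value in pairs within 2 sets of libraries (24.2 to 32.9% of loci) and not in pairs across them (7.35 to 8.90%): control 1 with cKO 3, and the other 4, and control 3 and cKO 3 belong to a second deposit by the order of their labels. In bulk tissue, fewer cells of a type and less RNA per cell cannot be told apart.

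Most of the 37 genes had slightly higher values in cKO, and none passed the test. The log2 fold change of FPKM + 1 (cKO minus control) was positive for 28 of the 37 and negative for 9, with a median of 0.11, whereas 47.0% of all 13612 loci tested had a positive value and their median was -0.0095. The values of single genes lay between -0.13 (Lrrc4) and 0.26 (Nlgn1). At a limma adjusted p of at most 0.05, 0 of the 37 genes were called in either direction, against 0.573% of all loci. Before adjustment, 9 had a limma p under 0.05 (17.6% of all loci did, in either direction), all with higher values in cKO (24.3% of the 37, against 7.82% of all loci in that direction), and 0 had lower values (against 9.79%). In 14 of the 37 every cKO library lay above every control library (37.8%, against 10.3% of all loci), and in 0 of them every cKO library lay below (against 13.6%). Of the 37 genes, 4 lie on the X chromosome (Nlgn3, Dlg3, Slitrk2 and Slitrk4), and among the other 33 the log2 fold change was positive for 24, with a median of 0.11. Without cKO 1, 28 of the 37 values were positive and their median was 0.08.

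**Figure D1:**
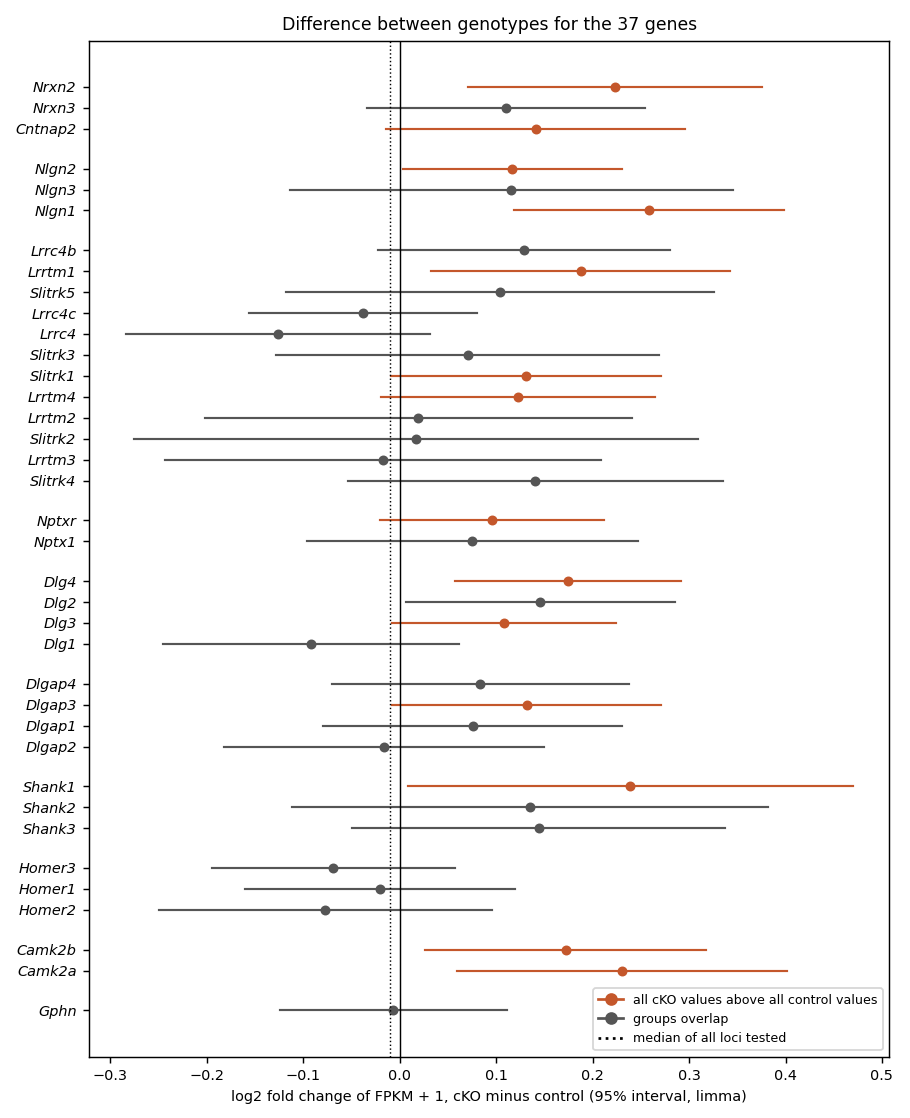
Log2 fold change of FPKM + 1 (cKO minus control, x axis) with its 95% interval from limma for each of the 37 genes, in blocks by role; orange marks the genes whose cKO values all lie above all control values, and the dotted line is the median of all loci tested. Of the 37 points 28 lie to the right of 0, and no point lies beyond 0.26.

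Promoter sequences were searched for the E-box letters CACCTG, on either strand (CAGGTG on the other), because ZEB proteins bind E-boxes of this kind. RefSeq windows of 300 bases (250 before and 50 after an annotated gene start, GRCm38.p6) were found for 27 of the 37 genes. At least 1 window held the letters in 7 of the 27 (25.9%), against 20.8% of 10137 genes of the loci tested, and in 2 of the 10 genes with a window whose groups were apart. Counted by window, 8 of 44 windows of the 37 genes held it (18.2%) and 20.2% of all 32851 windows. The shares of the 37 genes were thus near those of promoters in general. Below are the 250 bases before 1 start each of Dlg3, a gene with groups apart and a match, Homer1, a gene with a match whose groups overlapped, and Nlgn1, the gene with the smallest p and no match. Each start shown is 1 of 2 with a window for its gene and lies within the annotated span of that gene. None of the 3 stretches overlaps an annotated exon, each is read 5′ to 3′ toward the gene, and capitals mark the E-box letters.
Dlg3, chrX:100777021-100777270, plus strand: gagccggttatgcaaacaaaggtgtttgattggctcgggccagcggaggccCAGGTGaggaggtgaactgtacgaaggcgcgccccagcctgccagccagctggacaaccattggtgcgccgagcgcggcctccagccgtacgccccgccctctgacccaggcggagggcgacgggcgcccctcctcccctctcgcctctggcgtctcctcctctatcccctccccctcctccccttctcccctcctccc
Homer1, chr13:93303507-93303756, plus strand: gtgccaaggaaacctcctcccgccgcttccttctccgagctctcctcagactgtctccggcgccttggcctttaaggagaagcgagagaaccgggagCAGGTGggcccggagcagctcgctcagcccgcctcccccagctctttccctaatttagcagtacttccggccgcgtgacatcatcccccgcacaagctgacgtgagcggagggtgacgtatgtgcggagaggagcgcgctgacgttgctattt
Nlgn1, chr3:26153987-26154236, minus strand: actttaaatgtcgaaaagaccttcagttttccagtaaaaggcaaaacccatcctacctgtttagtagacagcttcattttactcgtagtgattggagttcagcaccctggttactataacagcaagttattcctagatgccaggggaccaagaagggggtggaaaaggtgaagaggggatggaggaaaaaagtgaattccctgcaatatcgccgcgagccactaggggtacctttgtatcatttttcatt
The match began 199 bases before the start of Dlg3 and 153 bases before that of Homer1. A match describes the letters in the window and no more, and the binding of Zeb2 was not measured here.

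Levels of the 37 genes spanned a wide range, from a mean over the 6 libraries of 1.57 FPKM (Dlgap2) to 102 FPKM (Lrrc4b). Their median, 14.002 FPKM, was close to the 12.98 FPKM of all loci tested. A mean of at least 50 FPKM was reached by 8 genes: Lrrc4b, Dlg4, Nptxr, Nlgn2, Nrxn2, Camk2b, Dlgap4 and Dlgap3. Means under 10 FPKM were found for 13 genes, among them Nlgn1, Camk2a, Homer1 and Homer2, Lrrc4, Lrrtm2, Lrrtm3 and Lrrtm4. Since FPKM is scaled for transcript length, these levels can be set beside each other, as the plot of levels by library does.

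**Figure D2:**
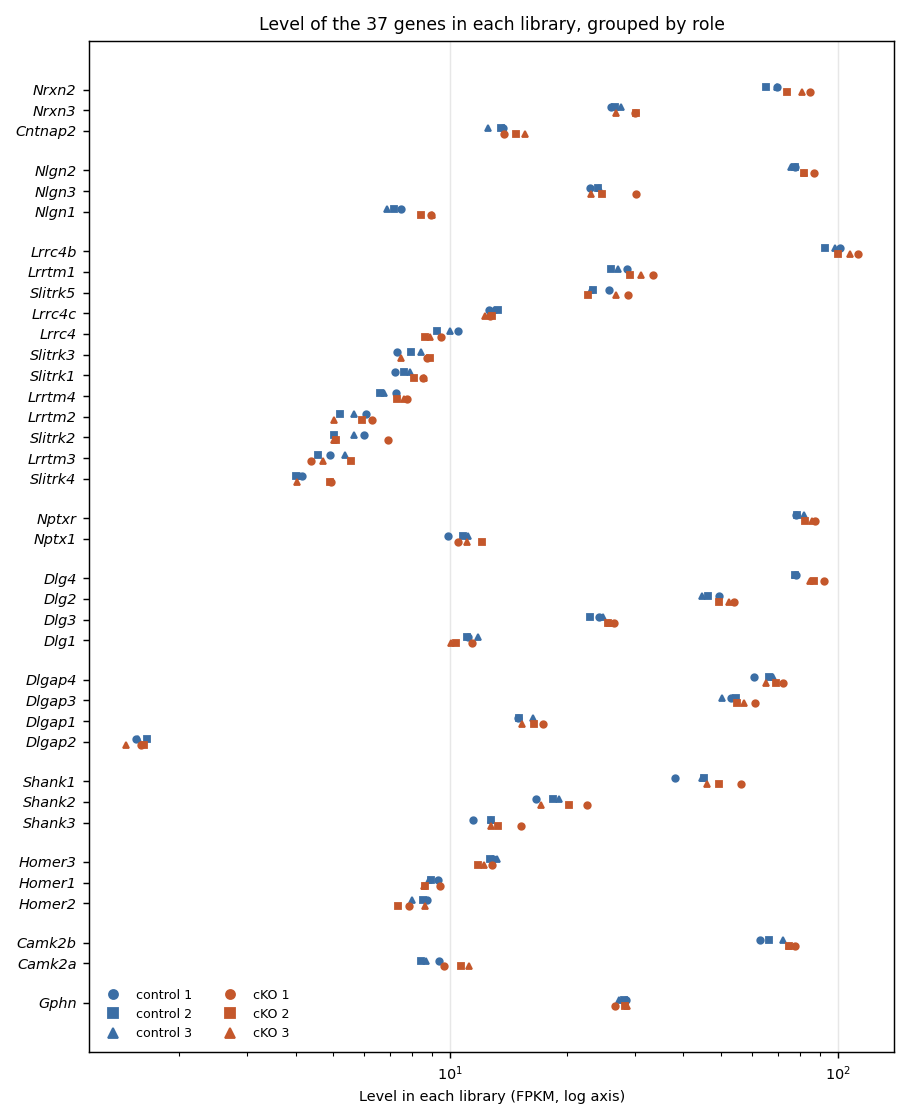
Level of each of the 37 genes (FPKM, log axis) in each library, in blocks by role and ordered by mean level within a block; blue symbols are control libraries and orange symbols cKO libraries. Within the neuroligins the genes lie further apart than the genotypes do: Nlgn2, Nlgn3 and Nlgn1 sit at means of 80.3, 24.9 and 7.98 FPKM.

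Among the presynaptic genes, Nrxn2, a neurexin (GRCm38 chromosome 19, 6418731 to 6544169, plus strand), stood at 69.7, 65.4 and 69.9 FPKM in controls 1, 2 and 3, against 84.9, 74.2 and 81.1 FPKM in cKO 1, 2 and 3. Every cKO library was above every control, and the means were 68.4 ± 2.53 and 80.1 ± 5.42 FPKM (SD, n = 3 each; log2 fold change 0.22, SE 0.06, limma adjusted p = 0.163). Its exons overlap those of Slc22a12 on the opposite strand, and no source used here gives the strand setting of the counting. Nrxn3, the other neurexin measured here, averaged 26.7 ± 0.789 FPKM in the 3 controls, against 29.0 ± 1.87 FPKM in cKO, with overlapping groups. Cntnap2, a neurexin-like protein that clusters potassium channels along the axon, was at 13.7, 13.6 and 12.5 FPKM in the 3 controls, against 13.8, 14.8 and 15.6 FPKM in cKO. The groups were apart, but the lowest cKO value exceeded the highest control value only slightly, and the log2 fold change was 0.14 (SE 0.07, limma adjusted p = 0.323).

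Neuroligins are the postsynaptic partners of neurexins. Nlgn1, the neuroligin of glutamatergic synapses (GRCm38 chromosome 3, 25426215 to 26332460, minus strand), had the smallest p and the largest log2 fold change of the 37 genes. It was at 7.48, 7.16 and 6.89 FPKM in the 3 controls, against 8.96, 8.40 and 8.99 FPKM in cKO, so that the groups were apart, and the cKO mean was 122% of the control mean (log2 fold change 0.26, SE 0.06, limma adjusted p = 0.104). Within the set of control 1 and cKO 3 the difference was 0.24 on the log2 scale, and within the set of the other 4 libraries it was 0.27. Exons of Nlgn1 overlap those of A830092H15Rik, which is not annotated as protein-coding, on the opposite strand. Nlgn2, the neuroligin of inhibitory synapses (chromosome 11, 69823122 to 69837784, minus strand), stood at 77.5, 77.7 and 75.7 FPKM in the 3 controls, against 87.0, 81.9 and 81.8 FPKM in cKO. Its groups were also apart, with a smaller log2 fold change of 0.12 (SE 0.05, limma adjusted p = 0.273). Nlgn3, which is found at both kinds of synapse, was at 23.0 to 24.2 FPKM in the 3 controls, against 30.2, 24.6 and 23.2 FPKM in cKO 1, 2 and 3. Only cKO 1 was far from the controls, and the interval of its log2 fold change ran from -0.11 to 0.35.

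The 12 leucine-rich repeat organizers are postsynaptic adhesion proteins: the Lrrtm proteins bind neurexins, while the Lrrc4 (netrin-G ligand) and Slitrk proteins bind netrin-Gs and receptor tyrosine phosphatases. Of the 12, 9 had a positive and 3 a negative log2 fold change (median 0.09). Groups apart with higher values in cKO were found for 3 of them, Lrrtm1, Slitrk1 and Lrrtm4 (25% of the 12, against 10.3% of all loci). With lower values in cKO there were 0 (against 13.6% of all loci). Lrrc4b was the most abundant of the 12 and of all 37 genes, at 102, 92.9 and 98.2 FPKM in the 3 controls, against 113, 100.1 and 108 FPKM in cKO. Its groups overlapped, because cKO 2 lay below control 1 (log2 fold change 0.13, SE 0.06, limma adjusted p = 0.354). Lrrtm1 was at 28.6, 26.0 and 27.2 FPKM in the 3 controls, against 33.4, 29.2 and 31.1 FPKM in the cKO libraries (log2 fold change 0.19, SE 0.07, limma adjusted p = 0.221). Every cKO value of Lrrtm1 exceeded every control value.

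Slitrk1 had 7.22, 7.59 and 7.90 FPKM in the 3 controls, against 8.50, 8.06 and 8.59 FPKM in cKO, and Lrrtm4 with 7.25, 6.61 and 6.76 against 7.77, 7.32 and 7.62 FPKM. Both had groups that were narrowly apart and log2 fold changes of 0.13 and 0.12. The other members did not separate the groups. Lrrc4, Lrrc4c and Lrrtm3 had negative log2 fold changes of -0.13, -0.04 and -0.02. Lrrtm2, Slitrk2, Slitrk3, Slitrk4 and Slitrk5 had positive ones from 0.02 to 0.14. In the order of levels, Lrrc4b was above Lrrtm1 in every library. Lrrtm1 and Slitrk5 (means 29.3 and 25.1 FPKM) overlapped in range, as did each neighbouring pair from Lrrc4 (9.45 FPKM) down to Lrrtm4 (7.22 FPKM) and from Lrrtm2 (5.70 FPKM) down to Slitrk4 (4.36 FPKM). Exons of Lrrtm2 overlap Ctnna1 on the opposite strand.

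The neuronal pentraxins gather AMPA receptors at synapses, and Nptxr is their membrane-bound member. Its locus carries the symbols Cbx6, Npcd and Nptxr, so the value cannot be given to Nptxr alone. The locus was at 78.1, 78.7 and 82.1 FPKM in the 3 controls, against 87.3, 82.3 and 86.0 FPKM in cKO. The groups were apart, with cKO 2 just above control 3 (log2 fold change 0.10, SE 0.05, limma adjusted p = 0.366). Nptx1, a secreted pentraxin, averaged 10.6 ± 0.641 FPKM in the 3 controls, against 11.2 ± 0.804 FPKM in cKO, with overlapping groups.

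**Figure D3:**
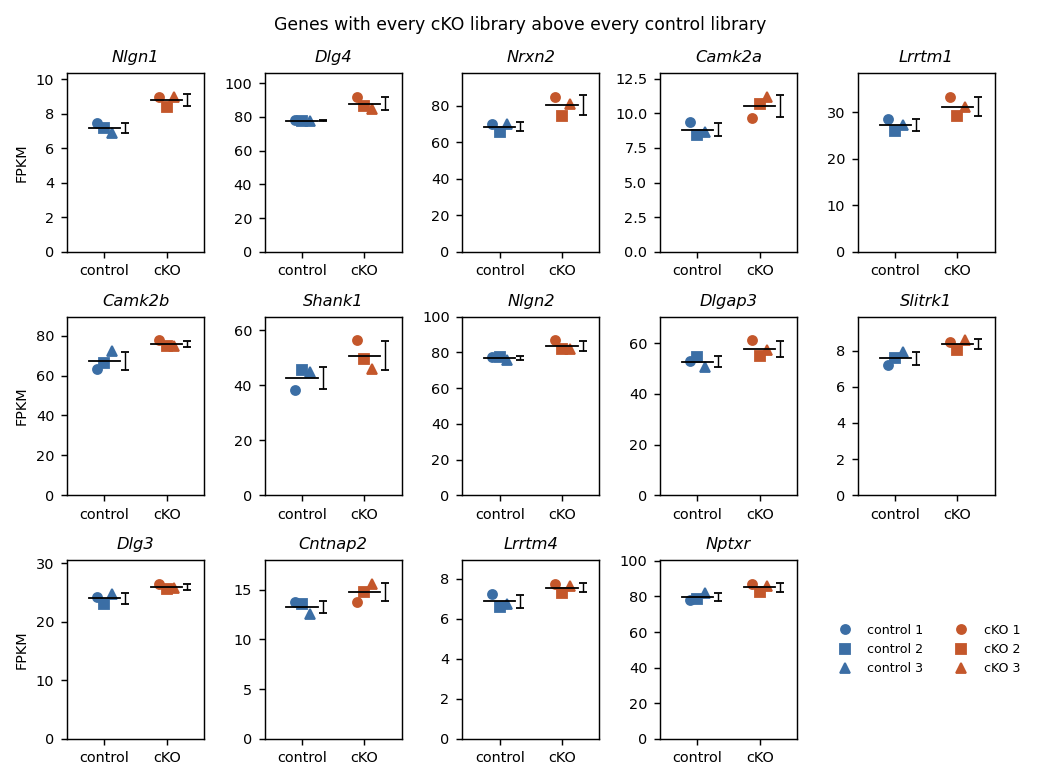
FPKM (y axis, from 0) in each library for the 14 genes whose cKO values all lie above all control values, ordered by p; horizontal bars are group means and error bars 1 SD (n = 3). The gaps between groups are narrow beside the levels: Nlgn1, first in the order, has a cKO mean at 122% of its control mean, and Nptxr, last, at 107%.

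The PSD-95 family are membrane-associated scaffolds that anchor glutamate receptors. Dlg4, PSD-95 itself (chromosome 11, 70016942 to 70047522, plus strand), was at 78.0, 77.8 and 77.5 FPKM in the 3 controls, which hardly varied, against 92.1, 86.8 and 84.9 FPKM in cKO. All 3 cKO values lay above the controls, and the log2 fold change was 0.17 (SE 0.05, limma adjusted p = 0.156), or 0.12 within the set of control 1 and cKO 3 and 0.20 within the other set. Dlg2, known as PSD-93, had 49.5, 46.3 and 44.8 FPKM in the 3 controls, against 54.0, 49.4 and 52.4 FPKM in cKO. The groups overlapped, since cKO 2 was just below control 1 (log2 fold change 0.15, SE 0.06, limma adjusted p = 0.266). Dlg3, or SAP102, the family member known as abundant in the young brain, was at 24.2, 23.0 and 24.8 FPKM in the 3 controls, against 26.5, 25.6 and 25.7 FPKM in cKO, with groups apart. Dlg1, or SAP97, differed in sign from the other members, at 11.4 ± 0.428 FPKM in the 3 controls, against 10.6 ± 0.715 FPKM in cKO, with overlapping groups and an interval from -0.25 to 0.06. The order Dlg4, Dlg2, Dlg3, Dlg1 held in every library, and no neighbouring ranges overlapped.

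Dlgap proteins bind the guanylate kinase domain of PSD-95 and link it to the Shank proteins. Dlgap4 was the most abundant of the family, at 60.7, 66.4 and 68.2 FPKM in the 3 controls, against 72.3, 69.5 and 65.2 FPKM in cKO. Its groups overlapped. Dlgap3 stood at 52.9, 54.8 and 50.5 FPKM in the 3 controls, against 61.3, 55.1 and 57.2 FPKM in cKO, with groups apart and a log2 fold change of 0.13 (SE 0.06, limma adjusted p = 0.306). Dlgap1 (log2 fold change 0.08) and Dlgap2 (-0.02) had overlapping groups, and Dlgap2, at 1.46 to 1.65 FPKM, was near the level below which loci were not tested.

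The 3 Shank genes, master scaffolds of the glutamatergic postsynaptic density, all had positive log2 fold changes. Shank1 was at 38.1, 45.3 and 44.7 FPKM in the 3 controls, against 56.4, 49.6 and 46.0 FPKM in cKO. The groups were apart, with control 1 low and cKO 1 high, and the log2 fold change was 0.24 (SE 0.10, limma adjusted p = 0.271). It was 0.26 within the set of control 1 and cKO 3 and 0.23 within the set of the other 4 libraries. By deposit it was 0.34 between the libraries of the first, and 0.04 between control 3 and cKO 3, 1 library each from different sets. Exons of Shank1 overlap those of 1700008O03Rik on the opposite strand. Shank2 averaged 18.1 ± 1.27 and 20.0 ± 2.73 FPKM, and Shank3 12.3 ± 0.767 and 13.7 ± 1.32 FPKM, in controls and cKO. For both genes the groups overlapped and control 1 and cKO 1 were again the extremes.

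Homer proteins join Shank to metabotropic glutamate receptors and to receptors of intracellular calcium stores, and they were the only role group of more than 1 gene in which no gene had a positive log2 fold change. Homer3, the most abundant of the family here, was at 12.9, 12.6 and 13.2 FPKM in the 3 controls, against 12.8, 11.8 and 12.2 FPKM in cKO, with overlapping groups. The log2 fold changes were -0.02 for Homer1, -0.08 for Homer2 and -0.07 for Homer3, with a limma adjusted p of 0.551 or more for each. The sign for Homer1 turned positive under quantile normalization and median centring. For Homer1 the interval ran from -0.16 to 0.12, so a difference the size of that of Nlgn1 lay outside it. Exons of Homer3 overlap Ddx49 on the opposite strand.

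Calcium/calmodulin-dependent kinase II is the main kinase of the postsynaptic density. Camk2b, the beta subunit that binds actin, was at 63.1, 66.5 and 72.3 FPKM in the 3 controls, against 77.8, 74.8 and 74.9 FPKM in the cKO libraries (log2 fold change 0.17, SE 0.06, limma adjusted p = 0.227). Camk2a, the alpha subunit, was at 9.35, 8.42 and 8.67 FPKM in the 3 controls, against 9.67, 10.7 and 11.2 FPKM in the cKO libraries (log2 fold change 0.23, SE 0.07, limma adjusted p = 0.186). Both subunits had groups apart. Camk2b exceeded Camk2a 6.68-fold to 8.34-fold over the 6 libraries, and that ratio did not separate the groups.

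Gephyrin, the scaffold of GABAergic and glycinergic synapses, had the log2 fold change nearest to 0 of the 37 genes. Gphn was at 28.4, 28.2 and 27.3 FPKM in the 3 controls, against 26.6, 28.3 and 28.7 FPKM in cKO, and the cKO values lay on both sides of the controls. The log2 fold change was -0.0064, with a 95% interval from -0.12 to 0.11, and its sign turned under quantile normalization and median centring.

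A second list held 94 related genes of synaptic organization: other ligands, adhesion proteins and scaffolds. Of these, 91 were tested, and the log2 fold change was positive for 68 and negative for 23 (median 0.08). At a limma adjusted p of at most 0.05, 0 of the 91 were called, again against 0.573% of all loci, while 17 with higher and 6 with lower values in cKO had a limma p under 0.05 before adjustment (18.7% and 6.59% of the 91, against 7.82% and 9.79% of all loci). Of the 6 genes with the smallest p, 3 had lower values in cKO. C1ql1, a secreted synaptic ligand, was at 11.4, 10.8 and 9.55 FPKM in the 3 controls, against 4.30, 3.38 and 6.82 FPKM in the cKO libraries (log2 fold change -1.03, SE 0.20, limma adjusted p = 0.0810). Slitrk6, a relative of Slitrk1 to Slitrk5, was at 2.60, 2.18 and 2.27 FPKM against 1.54, 0.891 and 1.12 FPKM (log2 fold change -0.63), and Cntn1, a contactin of axons, at 75.1, 68.6 and 72.4 against 60.4, 57.4 and 60.4 FPKM (log2 fold change -0.27). These 3 passed in a fit without small-RNA loci, where 2.47% of all loci were called (limma adjusted p = 0.0281 for C1ql1, 0.0360 for Slitrk6 and 0.0438 for Cntn1). No gene of the 37 passed there, the smallest adjusted p being 0.0848 for Nlgn1.

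The other 3 of those 6 had higher values in cKO, in every library. Clstn3, a calsyntenin that binds neurexins, was at 74.0, 71.2 and 75.5 FPKM in the 3 controls, against 88.2, 82.8 and 85.8 FPKM in the cKO libraries (log2 fold change 0.22). Ntrk3, the neurotrophin receptor TrkC, which also acts as an adhesion protein, was at 19.9, 20.8 and 20.1 FPKM in controls and 26.5, 25.6 and 22.7 FPKM in cKO libraries (log2 fold change 0.28, limma adjusted p = 0.116). Ephb3, an ephrin receptor, was at 8.74, 8.33 and 9.04 FPKM in controls and 12.1, 11.6 and 9.71 FPKM in cKO libraries (log2 fold change 0.32, limma adjusted p = 0.146).

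**Figure D4:**
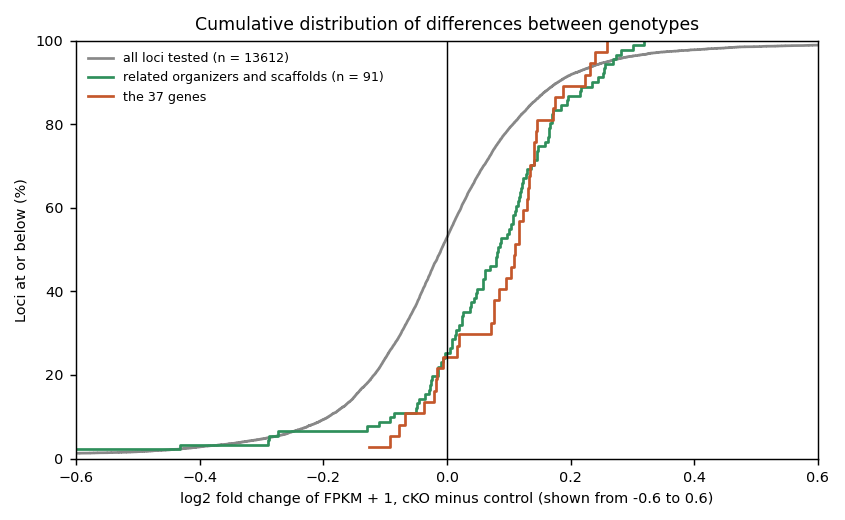
Cumulative share of loci (y axis, %) at or below each log2 fold change of FPKM + 1 (x axis, cKO minus control, shown from -0.6 to 0.6), for all 13612 loci tested, the 91 related organizers and scaffolds, and the 37 genes. The curve of all loci crosses 0 at over 50%, whereas 9 of the 37 genes and 23 of the 91 related genes lie below 0.

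Summed over the 37 genes, the level was 1018, 1016 and 1036 FPKM in controls 1, 2 and 3 and 1172, 1087 and 1096 FPKM in cKO 1, 2 and 3. All cKO sums were above the control sums, the cKO mean was 109% of the control mean, and cKO 1 was the highest. Markers of other cells moved beside it. The 10 genes of dividing progenitors, all lower in every cKO library, summed to 409 to 461 FPKM in the 3 controls, against 310 to 335 FPKM in cKO (73.8% of the control mean), and 4 of the 10 (Top2a, Aurkb, Cdc20 and Mcm4) fell at a limma adjusted p of 0.0336 or less. The 11 Purkinje cell genes summed to 925 to 964 FPKM in the 3 controls, against 994 to 1059 FPKM in cKO, with 10 positive log2 fold changes and none that passed. Pcp4 (control mean 409 FPKM) was the largest part of that sum. The gene with a negative value, Lhx5, was lower in every cKO library (81.9% of control, log2 fold change -0.27, limma adjusted p = 0.104). The 12 pan-neuronal genes summed to 3186 to 3396 and 3267 to 3690 FPKM, overlapping between groups, with 11 positive log2 fold changes and none that passed. The 5 genes of GABAergic interneurons summed to 122 to 140 FPKM and 142 to 150 FPKM, with 3 positive and 2 negative log2 fold changes (Pax2 at 89.5% and Slc6a5 at 87.3% of control) and none that passed. Gad1, the largest part of the GABAergic interneuron sum, is in the Purkinje cell list too. No marker of these 4 lists was at 0.

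Divided by the pan-neuronal sum, the sum over the 37 genes was 0.320, 0.307 and 0.305 in the controls and 0.359, 0.295 and 0.310 in cKO, so that the groups overlapped on that scale. The pan-neuronal sum (control mean 3299 FPKM) was made up mostly of Tubb3, Stmn2 and Gap43 (control means 876, 727 and 582 FPKM). The ratio rests largely on these genes and is no measure of the number of neurons. Of the 7 genes of differentiating granule neurons, 6 were tested, and 4 had negative and 2 positive log2 fold changes. Nhlh2 (76.5% of control, log2 fold change -0.37, limma adjusted p = 0.0762) and Neurod1 (89.6%) were lower in every cKO library, and none of the 6 passed. The sums of the 7 genes overlapped (278 to 297 and 257 to 280 FPKM). Gabra6, a receptor subunit of mature granule neurons, stood at 0.0294 to 0.181 FPKM. Microglia genes, 7 of 7 higher in every cKO library with 1 that passed (Csf1r, limma adjusted p = 0.0483), summed to 35.9 to 36.9 and 48.0 to 51.9 FPKM. All 7 meningeal genes had positive log2 fold changes (median 1.01), and none passed. Ptgds (264% of control) and Foxc1 (153%) were higher in every cKO library. The sums of the 7 were 7.05 to 27.1 and 16.3 to 61.2 FPKM, overlapping between groups. Those of 6 genes of the oligodendrocyte lineage were 124 to 156 and 209 to 230 FPKM, but only 3 of the 6 had positive log2 fold changes and their median was -0.13. Olig1, which makes up most of that cKO sum, rose (202% of control, limma adjusted p = 0.0231), whereas Pdgfra (80.6%) and Mbp (77.9%) had lower values in every cKO library and did not pass. The 7 astroglia genes summed to 2121 to 2160 and 1976 to 2108 FPKM, a sum made up mostly of Fabp7 (means 1577 and 1581 FPKM). None of the 7 passed, but 3 had lower values in every cKO library, down to 47.7% of the control mean for Gdf10, and 2 had higher values in every one, up to 161% for Aldoc. The sums were, for the 5 genes of the cerebellar nuclei, 37.6 to 41.1 and 37.6 to 47.1 FPKM and, for the 6 endothelial genes, 55.2 to 64.8 and 63.9 to 68.8 FPKM. The part of these cell markers in the values of the 37 genes was not tested.

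**Figure D5:**
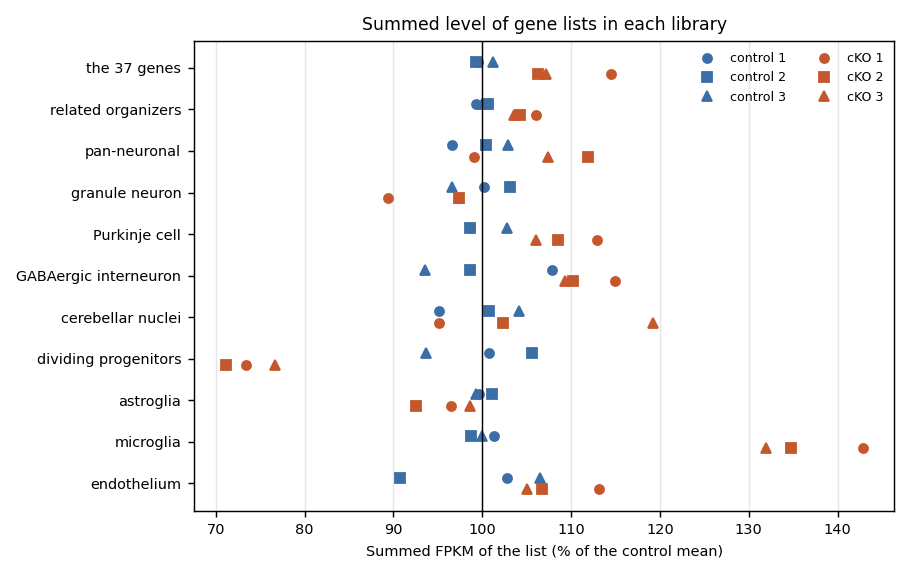
Summed FPKM of each gene list in each library, as a percentage of that list's mean over the control libraries (x axis); blue symbols are control and orange symbols cKO libraries, and the lists for meninges and the oligodendrocyte lineage, whose values are in the text, are not drawn. The 37 genes lie at 109% of the control mean over the cKO libraries, the dividing progenitor list at 73.8%, and the pan-neuronal list overlaps between groups.

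The number of genes with higher values in cKO differed between batches. The processing sets were inferred from the ratios of low values and are not named in the labels. Between control 1 and cKO 3, which form 1 processing set, 26 of the 37 genes had higher values in cKO and the median log2 difference was 0.06. In the other set, of controls 2 and 3 and cKO 1 and 2, these were 30 genes and 0.14. Between the libraries of the first deposit they were 30 genes and 0.12, and between control 3 and cKO 3, the later deposit, 19 genes and 0.04. The 19 of 37 were close to the 48.2% of all loci with higher values in that deposit, and Nrxn3, Nlgn3, Shank2, Shank3, Dlgap1 and Dlgap4 were among those with lower values there. In the other 3 comparisons the share over all loci was 45.9 to 47.5%. The comparisons share libraries, and control 3 and cKO 3, 1 library each, lie in different processing sets. Their difference therefore crosses that split.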

How the data were processed

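Trizol was used to extract total RNA and an Illumina TruSeq kit to make the libraries, per the labels' protocols. CASAVA, TopHat, Cufflinks and build mm10 are named in the submitters' processing notes; the sources used here do not give versions, annotation, strand setting or scaling. The deposited values were read as FPKM from Cufflinks' locus names and the values, since no label names the unit. The read depth behind them is unknown. Replicate numbers follow titles and column names, since 1 cKO description has another number.

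Values were tested as log2(FPKM + 1) with limma 3.58.1 (R 4.3.3, trend, two-sided). Benjamini-Hochberg adjustment was made over all 13612 loci tested, with a threshold of 0.05. The fit was also run on simulated data, with independent noise at each locus and changes larger than those of the 37 genes. Shifts of whole libraries were not simulated, so that run cannot show how the fit handles them or smaller changes. P-values measure the spread between libraries, which may be technical. The 37 genes, the related and marker lists and the alternatives were chosen with earlier results of these data known. All 37 genes are accounted for. Values in every library are given for those with a limma p under 0.05 before adjustment or with groups apart, and for the most abundant gene of each role; of the related list, for the 6 with the smallest p unless more passed. Coordinates are from GENCODE M21 and promoter sequences from RefSeq (GRCm38.p6). Exons of Nlgn3 and Dlg2 overlap genes not annotated as protein-coding on the same strand. Those of Nlgn1, Nrxn2, Nrxn3, Lrrtm4, Dlgap1, Dlgap4, Shank3, Homer2 and Gphn overlap such genes on the opposite strand. Figures were made with matplotlib 3.10.9 in Python 3.11.15.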

Additional observations from a re-analysis of the deposited data

How the results depend on the processing

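Under the 17 alternatives run (leaving out single libraries included), 0 of the 37 genes were called, with a smallest limma adjusted p of 0.0848, and 31 of the 37 kept their sign throughout. The number with a positive log2 fold change was 27 to 32 and the median 0.079 (without cKO 1) to 0.13 (median centring). With the 4 X-linked genes left out, chosen after seeing the data, 24 of 33 were positive. Over all loci the number of calls was 78, and 21 to 55 with 1 library left out, 15 with the replicate number as a block, 22 with the deposit as a covariate, 60 with the processing set as a covariate, 28 without a filter, 30 at a mean of at least 5 FPKM, 330 with small-RNA loci left out and 336 with robust variance. Of the related genes, 0 were called, and 3 with small-RNA loci left out, 2 with robust variance (Slitrk6 and Cntn1) and 0 to 1 with 1 library left out (C1ql1 without cKO 3, limma adjusted p = 0.0202); the cause was not tested. The 6 genes whose sign turned had log2 fold changes near 0. With 1 library left out they ranged from -0.040 to 0.0998 for Lrrtm2, -0.099 to 0.045 for Lrrtm3, -0.11 to 0.085 for Slitrk2, -0.034 to 0.012 for Dlgap2, -0.059 to 0.00012 for Homer1 and -0.027 to 0.025 for Gphn. Under quantile normalization the value was 0.0043 for Lrrtm3, 0.00041 for Homer1 and 0.0052 for Gphn, and under median centring 0.0059 for Lrrtm3, 0.0070 for Dlgap2, 0.0029 for Homer1 and 0.017 for Gphn. Libraries of the same number did not deviate together (Pearson r = -0.027, 0.037 and 0.049 across loci, and -0.12 to 0.092 for pairs of different numbers). This gave no sign of pairing by replicate number, but 3 libraries per group, with 1 cKO number in doubt, cannot exclude pairing. With the block, 0 of the 37 genes and 0 of the related genes were called. The read depth is unknown, and it limits what low values such as those of Dlgap2 can show.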

Other observations

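The library cKO 1 had the highest value of all 6 libraries in 22 of the 37 genes, against 4 for cKO 2 and 5 for cKO 3, and its median log2 value over the 37 lay 0.16 above the control mean, against 0.09 for cKO 2 and 0.04 for cKO 3. Over all loci tested the same shifts were -0.014, -0.0060 and -0.0090. The pan-neuronal sum of cKO 1 was the lowest of the cKO libraries, at 3267 FPKM. Among the cKO libraries, Tubb3, Stmn2, Gap43 and Snap25 were lowest in cKO 1. Map2, Nefl and Dcx were highest there, and the other pan-neuronal genes lay between.

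Proportions between members were chosen after their values were seen and are given without a test. Some separated the groups and some did not. The level of Dlg4 relative to Gphn was 2.75, 2.76 and 2.84 in the controls and 3.46, 3.07 and 2.96 in cKO, and that of Nlgn2 relative to Gphn was 2.73, 2.76 and 2.77 against 3.27, 2.90 and 2.85. Dlg4 and Nlgn2 had groups apart by themselves, and Gphn did not. Nlgn1 made up 6.46 to 6.92% of the summed neuroligin level in the controls and 7.10 to 7.89% in cKO. Dlg1 made up 6.83 to 7.45% of the PSD-95 family in the controls and 5.80 to 6.20% in cKO, while the share of Dlg4 overlapped between groups at 47.9 to 49.2% and 49.1 to 50.4%. Shank1 made up 57.6 to 59.2% of the Shank family in the controls and 59.6 to 60.6% in cKO. The level of Nrxn2 relative to Nrxn3 and the shares of Nlgn2 and Nlgn3 among the neuroligins overlapped between groups.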
